A study of Mus musculus with 18 samples.

Results

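The genes described here are 10 neuronal subunits of voltage-gated calcium channels, chosen by name from the 36737 genes of the count table. They are the pore-forming subunits *Cacna1a*, *Cacna1b*, *Cacna1c*, *Cacna1e* and *Cacna1h*, the alpha2delta subunits *Cacna2d1*, *Cacna2d2* and *Cacna2d3*, and the beta subunits *Cacnb3* and *Cacnb4*, and each symbol belonged to 1 gene identifier. The study measured RNA in whole lumbar dorsal root ganglia (DRG, L3–L5) of CD1 mice, an outbred strain, by strand-specific poly(A) RNA-seq. Mice of the Sham group had sham surgery. Mice of the Fracture group had a tibial fracture of the left hind limb with a pin in the marrow canal and received vehicle. Mice of the Fracture+PDX group had the same fracture and received protectin DX (PDX), a lipid mediator made from docosahexaenoic acid. The ganglia of both fracture groups were taken on day 3, and the day for the Sham mice and the dose and route of PDX for these mice are not given in the sources used here. Each group held 6 libraries, 3 from males and 3 from females, named M1 to M3 and F1 to F3, and 18 libraries were analysed. In bulk tissue, fewer cells of a type and less RNA per cell cannot be told apart.

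Voltage-gated calcium channels open when the membrane depolarizes, and the calcium that enters releases transmitter at nerve terminals and shapes firing in the cell body. The pore subunit sets the type of current, the beta subunit binds it inside the cell and helps it reach the membrane, and the alpha2delta subunit, anchored outside, raises the number of channels at the surface and at the terminal. In sensory neurons, N-type and P/Q-type channels carry most of the calcium that drives release in the spinal cord, T-type channels lower the threshold for firing, and the alpha2delta-1 protein made from *Cacna2d1* is a binding site of gabapentin and pregabalin.

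The libraries held from 63235040 to 82824942 gene-assigned reads, and a member had from 495 to 26068 of them in a library. CPM values, read counts normalized to library size, are scaled between libraries by edgeR's TMM factors, and FPKM values, which are also divided by gene length, are the authors' own. A neuron list of 11 genes (such as *Tubb3*, *Uchl1* and *Stmn2*) summed to between 9570 and 10300 CPM in Sham, between 10700 and 10900 CPM in Fracture and between 10500 and 11200 CPM in Fracture+PDX, with none of its genes at 0 in a group. A nerve injury list of 12 genes (such as *Atf3*, *Sox11* and *Sprr1a*) summed to between 362 and 422 CPM, between 429 and 763 CPM and between 450 and 853 CPM in the same order. Skeletal muscle genes, 11 in the list, ranged from 31.5 to 763 CPM in Sham, from 64.8 to 1470 CPM in Fracture and from 18 to 711 CPM in Fracture+PDX, with none at 0 in a group. Calls of genes in lists for other cells are at an edgeR adjusted p under 0.05, which 2.92% of all genes tested passed in Fracture against Sham and 4.5% in Fracture+PDX against Sham. All 8 macrophage genes had a log2 fold change below 0 in Fracture and 4 of 8 did in Fracture+PDX, and 2 (*Csf1r* and *Adgre1*) and 1 were called lower. All 8 placental genes, an unusual signal in ganglia, were below 0 in both comparisons, and 2 and 6 were called lower. Of 9 endothelial and mural genes 1 was called lower in each (*Cdh5*), of 7 satellite glia genes 1 and 2 were called higher (*Ednrb* in both), and of 10 genes of large neurons 2 were called higher in Fracture (*Nefh* and *Nefm*). No gene of the nociceptor, myelin, neutrophil, muscle and red blood cell lists was called against Sham. The part of these lists in the members' differences was not tested.

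At their length-normalized level, the members covered a wide range. *Cacnb3*, a beta subunit of neurons, had the highest level, 70.03 ± 3.74 FPKM (SD, n = 18), and was above *Cacna2d1* in 18 of 18 libraries. *Cacna2d1* was next with 14.8 ± 2.47 FPKM, and it was above *Cacna1b*, the pore of N-type channels, in 16 of 18 libraries. *Cacna1b* at 10.9 ± 2.11 FPKM, *Cacnb4* at 10.4 ± 1.02 FPKM and *Cacna2d2* at 9.84 ± 0.657 FPKM were neighbours whose ranges overlapped. All 3 were ahead of *Cacna2d3* (7.27 ± 0.433 FPKM) by their means, and *Cacna2d2* exceeded it in 18 of 18 libraries. *Cacna2d3* and *Cacna1a*, the pore of P/Q-type channels, overlapped as well, the latter with 7.16 ± 0.460 FPKM. *Cacna1h*, the T-type pore of sensory neurons, stood at 5.90 ± 0.473 FPKM, *Cacna1c*, an L-type pore, at 2.76 ± 0.262 FPKM, and *Cacna1e*, the R-type pore, was lowest at 0.357 ± 0.0741 FPKM. The gene lengths implied by the deposited counts and FPKM values were 24.2 kb for *Cacna1c*, 28.0 kb for *Cacna1e* and 4.43 kb for *Cacnb3*.

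**Figure D1:**
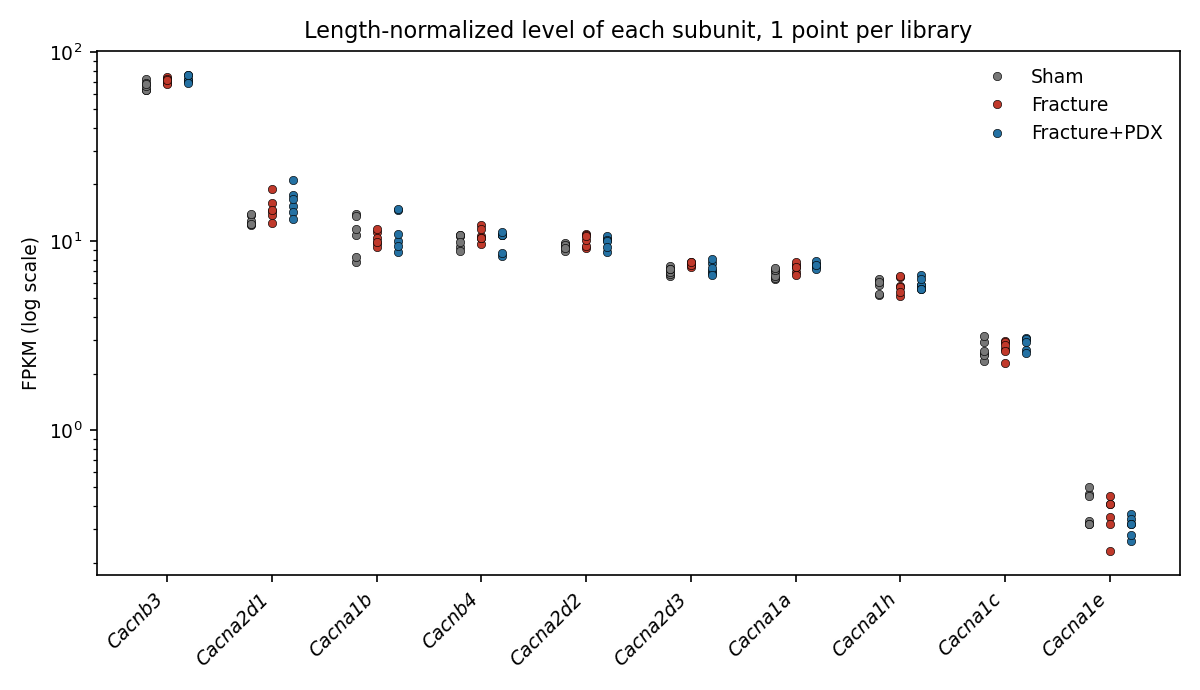
FPKM of the 10 subunits on a log axis, with 1 point per library and the groups in grey (Sham), red (Fracture) and blue (Fracture+PDX). *Cacnb3* stood apart at the top and *Cacna1e* at the bottom in all 18 libraries, while the ranges of *Cacna1b*, *Cacnb4* and *Cacna2d2* overlapped.

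Within each class the shares of the members overlapped between groups. Of the summed FPKM of the alpha2delta subunits, *Cacna2d1* made up 44.1% ± 1.34 in Sham, 45.6% ± 3.75 in Fracture and 48.6% ± 4.77 in Fracture+PDX (SD, n = 6 each), and the ranges overlapped. *Cacnb3* made up 86.9% ± 1.18, 86.7% ± 1.19 and 87.7% ± 1.41 of the summed FPKM of both beta subunits in the same order. These shares are descriptions of the deposited values and were not tested.

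*Cacna2d1* (chr5:15934691-16374511, plus strand, mm10) and *Cacna2d3* (chr14:28904943-29721864, minus strand) had the largest difference of the members and the only call, respectively, between Fracture and Sham. The 250 bases before their RefSeq start sites (GRCm38.p6, the assembly of mm10) are therefore shown, 5′ to 3′ in the sense of the gene. They lie at chr5:15934441-15934690 and chr14:29721865-29722114. Each GC box (GGGCGG or its reverse complement CCGCCC, the site of Sp-type factors) is in capitals.
Cacna2d1: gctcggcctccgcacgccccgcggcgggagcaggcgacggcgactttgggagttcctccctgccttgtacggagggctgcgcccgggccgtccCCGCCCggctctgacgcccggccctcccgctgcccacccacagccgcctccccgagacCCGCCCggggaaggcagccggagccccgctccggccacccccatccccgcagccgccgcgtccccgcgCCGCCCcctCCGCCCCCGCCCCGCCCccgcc
Cacna2d3: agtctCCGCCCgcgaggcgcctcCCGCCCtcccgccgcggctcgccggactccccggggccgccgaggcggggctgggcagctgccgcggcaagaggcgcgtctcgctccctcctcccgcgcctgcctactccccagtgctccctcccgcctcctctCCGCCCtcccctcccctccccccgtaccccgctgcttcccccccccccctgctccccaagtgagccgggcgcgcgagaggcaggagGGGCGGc
The *Cacna2d1* window held 6 GC boxes, overlapping ones counted, and the *Cacna2d3* window 4, and 82.4% and 80.0% of their bases were G or C. Among 32851 RefSeq promoter windows of the same length, 32.7% held a GC box and the median GC content was 52.4%. Searched on both strands, neither window held the AP-1 motif TGANTCA, present in 6.75% of all windows, or the CRE motif TGACGTCA, present in 1.55%. Of the 10 members, 8 had an entry in the promoter table. Other members held GC boxes too: 6 each in a *Cacnb4* and a *Cacna1c* window, 3 each in the *Cacna1b* window and a *Cacnb3* window, and 1 in that of *Cacna2d2*. Further windows of *Cacna1c*, *Cacnb3* and *Cacnb4*, and that of *Cacna1e*, held none. No window of any member held the AP-1 or CRE motif, so the shown windows were not set apart by these motifs.

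The first comparison, Fracture against Sham, asks how these genes differed in the ganglia of fractured mice. *Cacna2d3* was higher after fracture and passed the test across all genes, and the other 9 members did not. The differences of the members ran from -0.12 to 0.23 on the log2 scale, with a median of 0.11 beside 0.00207 over all 20659 genes tested. The lower end, *Cacna1e*, was at -0.014 in a fit without Fracture F1. All group tests below are edgeR quasi-likelihood tests with sex as a covariate, adjusted by Benjamini-Hochberg over all genes tested. Of the members, 1 of 10 was called at an adjusted p under 0.05, where 2.92% of all genes were. At an unadjusted p under 0.05, 6 of 10 were higher, where 8.79% of all genes were: *Cacna1a*, *Cacna2d1*, *Cacna2d2*, *Cacna2d3*, *Cacnb3* and *Cacnb4*.

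*Cacna2d3*, an alpha2delta subunit that gabapentinoids bind poorly and that is known for a part in pain and hearing, had a lowest, median and highest value of 63.1, 67.2 and 69.8 CPM in Sham, and of 70.4, 73.5 and 75.5 CPM in Fracture. Every Fracture library was above every Sham library, a pattern that 1 of 10 members showed in this comparison and 1.1% of all genes did. The increase was 9.80%, a log2 fold change of 0.13 (SE 0.0324, edgeR adjusted p = 0.0422). The call was lost in 10 of 12 fits that each left out 1 library, remaining without Sham F3 or without Fracture F1, with adjusted p between 0.0301 and 0.0985. It was also lost in edgeR without the filter on low counts (adjusted p = 0.0604) and with all 18 libraries in one fit (adjusted p = 0.105), and in limma on FPKM values (adjusted p = 0.0856 and 0.0870). In Fracture+PDX the values were 62.9, 69.6 and 78.5 CPM, and 4 of 6 of these libraries were below every Fracture library.

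*Cacna2d1* had 169, 172 and 189 CPM in Sham and 171, 200 and 258 CPM in Fracture. The groups overlapped, with 5 of 6 Fracture libraries above every Sham library. The log2 fold change was 0.23 (SE 0.0734, edgeR adjusted p = 0.125), and without Fracture M2, the highest library of its group, it was 0.16. DESeq2 on the same counts gave an adjusted p of 0.0324.

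The other pore subunits and the beta subunits lay closer to Sham. *Cacna1a* had 85.6, 91.3 and 98.2 CPM in Sham and 89.6, 100.1 and 107 CPM in Fracture, a log2 fold change of 0.11 (SE 0.0480, edgeR adjusted p = 0.225). *Cacnb3* ranged from 282 to 317 CPM in Sham and from 300.5 to 326 CPM in Fracture, and its log2 fold change was 0.10 (edgeR adjusted p = 0.137, or 0.0253 without Sham M1). The corresponding values of *Cacnb4* and *Cacna2d2* were 0.12 and 0.13 (edgeR adjusted p = 0.161 and 0.169). For *Cacna1h* the interval of the log2 fold change went from -0.12 to 0.15, for *Cacna1c* from -0.13 to 0.21, for *Cacna1e* from -0.48 to 0.23 and for *Cacna1b* from -0.41 to 0.26, with adjusted p between 0.761 and 0.935 (edgeR).

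**Figure D2:**
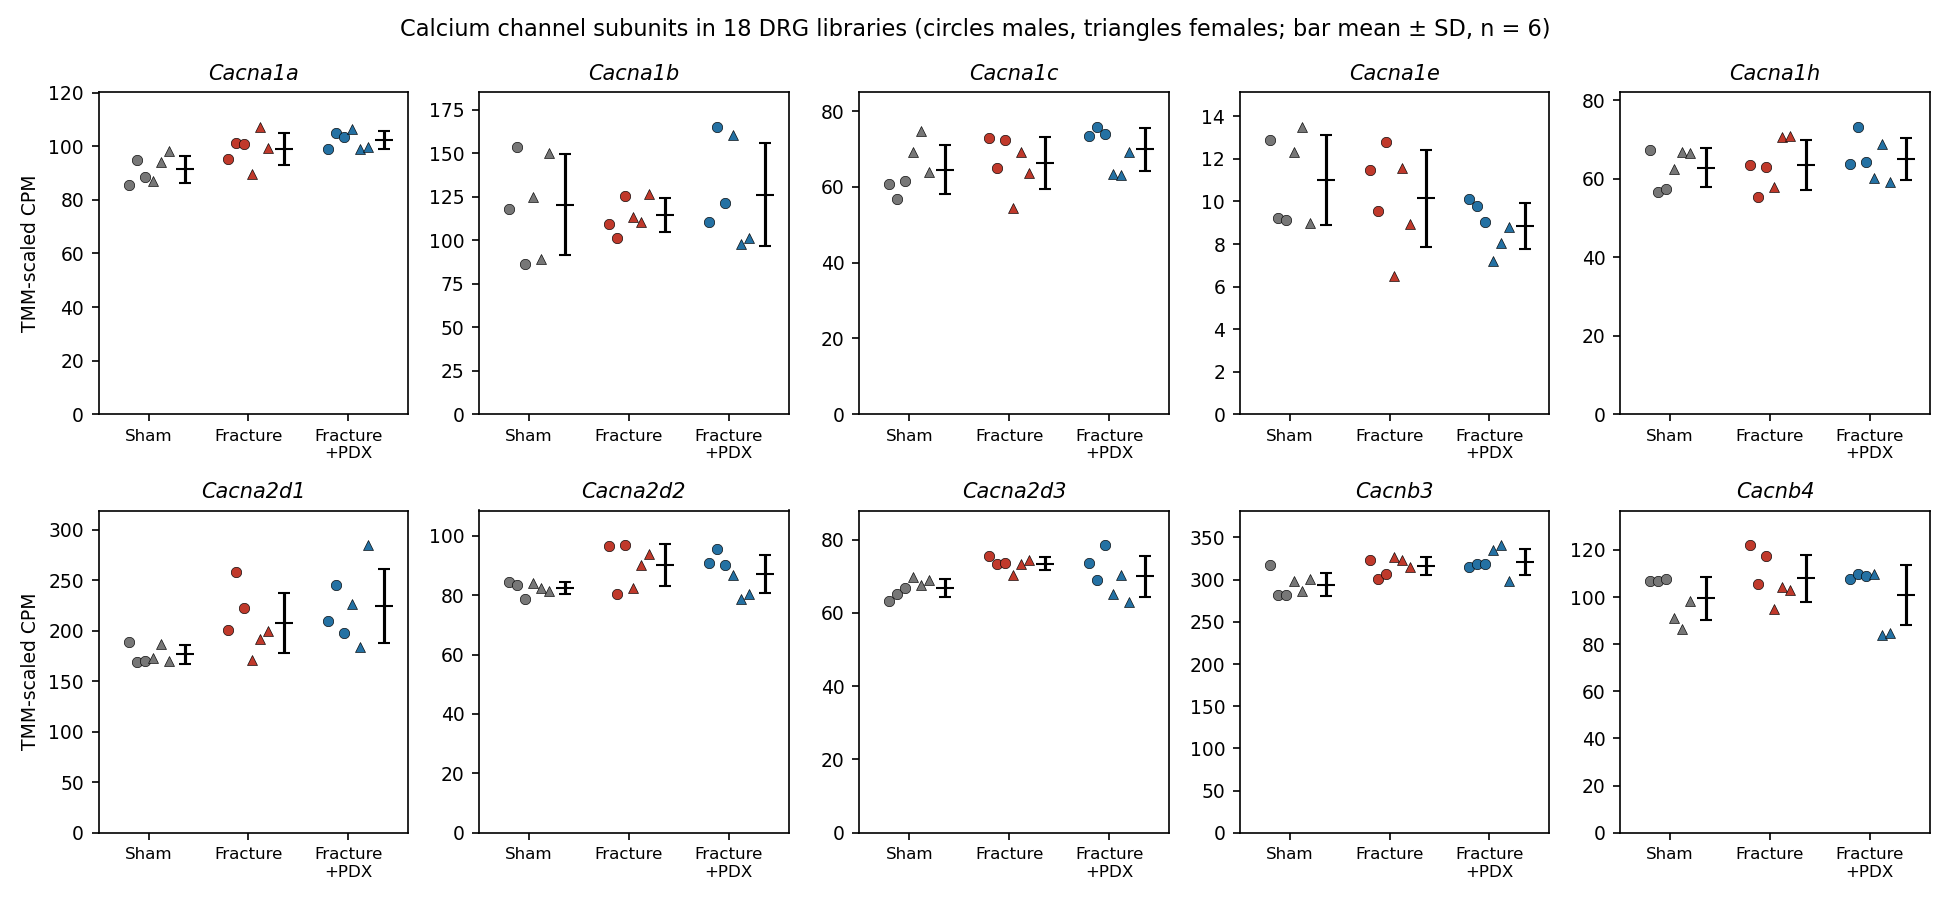
TMM-scaled CPM (axes from 0) of each subunit in each library, by group, with circles for males, triangles for females and a bar for mean ± SD (n = 6). The Fracture libraries of *Cacna2d3* sat between 70.4 and 75.5 CPM, above all Sham libraries, and *Cacna1b* spread from 86.2 to 165 CPM, with 2 of 6 Fracture+PDX libraries above every Sham and Fracture library.

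The neuron list lay on the same side of 0 as most members, as did the skeletal muscle list (median log2 fold change 2.09, 11 of 11 genes above 0, none called). The macrophage, red blood cell, neutrophil and placental lists lay below 0, with medians of -0.30, -0.53, -0.78 and -1.80. Of the 11 neuron genes, all 11 had a log2 fold change above 0 after fracture, with a median of 0.12. At an unadjusted p under 0.05 in edgeR, 10 of 11 were higher, beside 6 of 10 members. At an adjusted p under 0.05, 3 were called higher and none lower. The part of the neuron genes in the members' differences was not tested. When libraries were scaled to the summed counts of these 11 genes, an alternative added after the data were seen, the median of all genes shifted to -0.13 and the log2 fold change of *Cacna2d3* was 0.00114 (edgeR adjusted p = 0.987). Under that scaling 6 of 10 members (*Cacna1a*, *Cacna1c*, *Cacna1h*, *Cacna2d2*, *Cacnb3* and *Cacnb4*) changed sign, and 2 of 10 stayed above 0, *Cacna2d1* at 0.092 (edgeR adjusted p = 0.374) and *Cacna2d3*.

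Fracture+PDX against Fracture asks whether treated and untreated fractured mice differed. No member passed the test, and 0% of the 20562 genes tested did at an adjusted p under 0.05 in edgeR, while DESeq2 called 10 genes. At an unadjusted p under 0.05 there were 1113 genes, or 5.41%, and 0 of 10 members. The members' log2 fold changes ran from -0.19 for *Cacna1e* to 0.15 for *Cacna1b*, with a median of 0.034 and edgeR adjusted p between 0.917 and 0.990. Both ends moved toward 0 when 1 library was left out, *Cacna1e* to -0.096 without Fracture F2 and *Cacna1b* to 0.041 without Fracture+PDX F1. For *Cacna2d1* the interval of the log2 fold change went from -0.15 to 0.40, for *Cacna2d3* from -0.16 to 0.023 and for *Cacna1a* from -0.035 to 0.14. Each of these intervals held 0.

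Fracture+PDX against Sham uses the same Sham libraries as the first comparison and shows the combined difference of fracture and treatment. *Cacna1a* passed the test, *Cacna2d1* had the largest difference without passing it, and *Cacna1e* was the only member with a lower value. Of the members, 1 of 10 was called, where 4.5% of the 20574 genes tested were. At an unadjusted p under 0.05, 3 of 10 were higher (*Cacna1a*, *Cacna2d1* and *Cacnb3*), where 8.97% of all genes were. Of the 11 neuron genes, 9 were higher at that unadjusted threshold. The members' median log2 fold change was 0.077, and that of all genes was -0.00128.

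*Cacna1a* had 98.9, 102 and 107 CPM in Fracture+PDX as lowest, median and highest value, against 85.6, 91.3 and 98.2 CPM in Sham. All 6 treated libraries were above every Sham library, as were those of 1 of 10 members and 1.35% of all genes. The increase was 12.2%, a log2 fold change of 0.17 (SE 0.0397, edgeR adjusted p = 0.0318). The call was lost in 7 of 12 fits without 1 library, those without Sham M1, M3, F1 or F2 or without Fracture+PDX M2, M3 or F1, with adjusted p up to 0.0821, and in limma on FPKM values (adjusted p = 0.0734 and 0.0739). Scaled to the 11 neuron genes, of which 6 rose in this comparison (median log2 fold change 0.14), the log2 fold change of *Cacna1a* was 0.019 (edgeR adjusted p = 0.821).

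*Cacna2d1* had 184, 218 and 285 CPM in Fracture+PDX. The highest Sham library, at 189 CPM, was above 1 of the 6 treated libraries, Fracture+PDX F2, and the other 5 were above all of Sham. The log2 fold change was 0.35 (SE 0.0937), a 27.8% higher level, with an edgeR adjusted p of 0.0593. Without Fracture+PDX F2 it was 0.41 (adjusted p = 0.0180, edgeR) and without Fracture+PDX F3, the highest library, 0.27 (adjusted p = 0.0447, edgeR). Under the neuron scaling *Cacna2d1* stayed higher, at 0.21 (edgeR adjusted p = 0.172), while the median of all genes was -0.15.

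*Cacna1e* had 8.97, 10.8 and 13.5 CPM in Sham and 7.21, 8.91 and 10.1 CPM in Fracture+PDX, and 3 of 6 treated libraries were below every Sham library. Its log2 fold change was -0.31 (SE 0.127, edgeR adjusted p = 0.205), and -0.46 under the neuron scaling (adjusted p = 0.0224, edgeR). That scaling lowers the values of all genes together, to a median of -0.15, and 21.8% of all genes were called lower under it. *Cacnb3* ranged from 298 to 341 CPM in Fracture+PDX, with a log2 fold change of 0.13 (edgeR adjusted p = 0.0860) that turned to -0.014 under the neuron scaling. It was called without Sham M1 (edgeR adjusted p = 0.0209), without Fracture+PDX F3 (0.0359), in one fit of all 18 libraries (0.0394) and in DESeq2 (0.0345), and in no other setting tried. The 6 members that remain, *Cacna1b*, *Cacna1c*, *Cacna1h*, *Cacna2d2*, *Cacna2d3* and *Cacnb4*, lay between 0.023 and 0.12, and each of these also had a value below 0 under the neuron scaling.

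**Figure D3:**
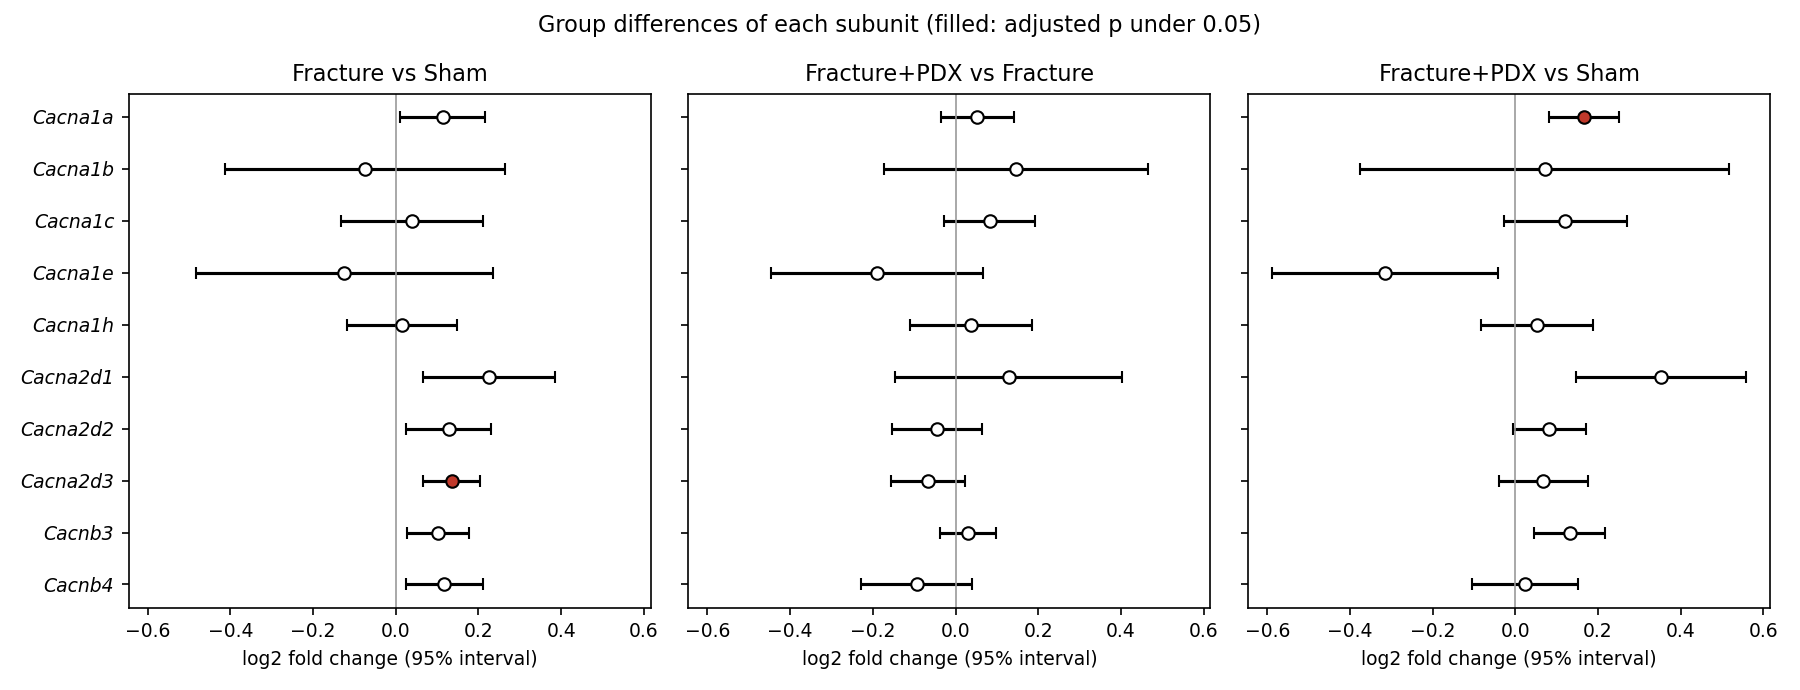
Log2 fold change of each subunit in 3 group comparisons with its 95% interval from the edgeR fit, filled where the adjusted p was under 0.05. The filled points are *Cacna2d3* at 0.13 in Fracture against Sham and *Cacna1a* at 0.17 in Fracture+PDX against Sham.

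**Figure D4:**
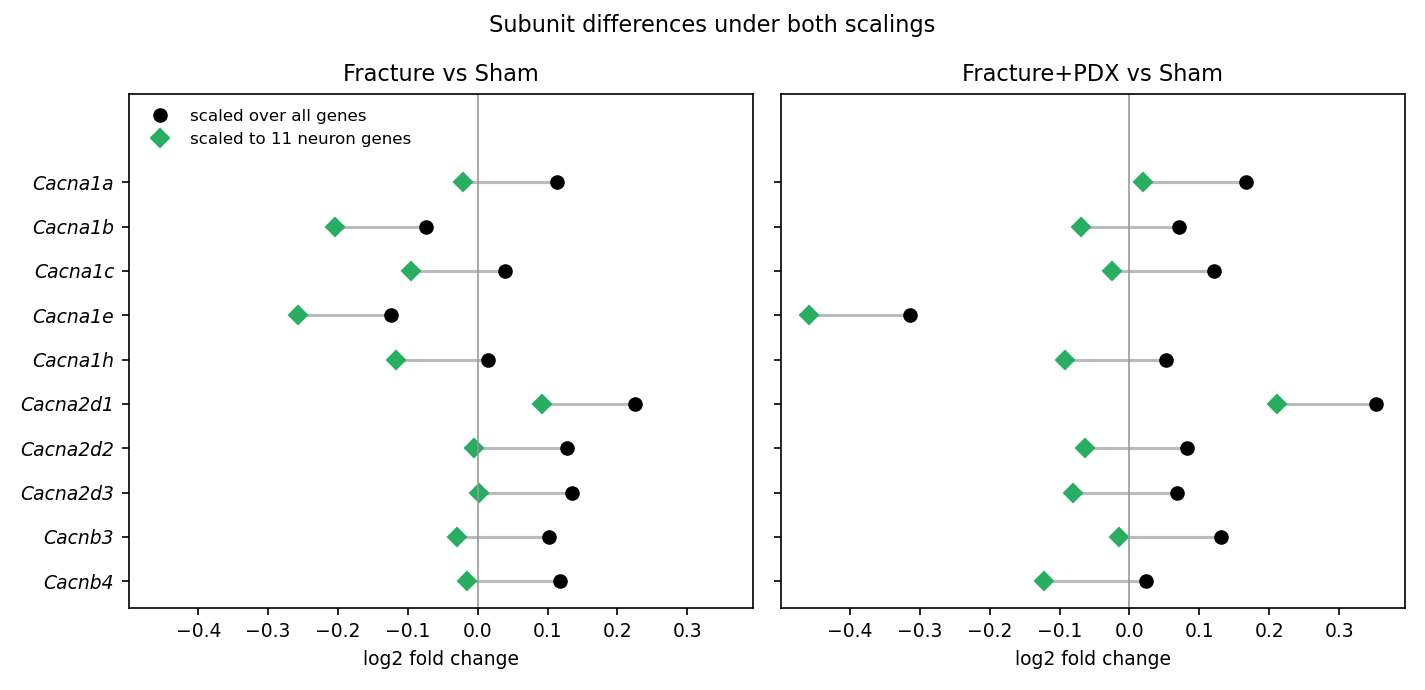
Log2 fold changes of the members against Sham with libraries scaled over all genes (black circles) and to 11 neuron genes (green diamonds). *Cacna2d1* stayed above 0 under both scalings in both comparisons (0.092 and 0.21 with the neuron scaling), and *Cacna1e* was below 0 throughout.

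*Cacna2d1* was highest in the libraries with the highest sums of the nerve injury genes. Of that list, 7 of 12 rose in Fracture and 8 of 12 in Fracture+PDX against Sham, with median log2 fold changes of 0.83 and 1.18. The 4 libraries with the highest injury sums were Fracture+PDX F3 (853 CPM), Fracture M2 (763 CPM), Fracture+PDX F1 (672 CPM) and Fracture+PDX M2 (644 CPM), and the same 4 held the highest *Cacna2d1* values, 285, 258, 227 and 246 CPM. Below these the orders parted. Fracture+PDX F2, next by injury sum (590 CPM), had 184 CPM of *Cacna2d1*, less than Sham M1 (189 CPM) and Sham F2 (187 CPM), and Fracture F1 (473 CPM) had 171 CPM. Over 18 libraries Pearson's r between log2 CPM of *Cacna2d1* and the log2 injury sum was 0.859 and Spearman's rho 0.746. It was 0.707 without both libraries farthest from the median injury sum, Fracture+PDX F3 and Fracture M2. For deviations from the group means r was 0.748 with all libraries and 0.340 without the same 2, so the size of the relation within groups rests on them. The relation was picked out after the values were seen, and both measures come from the same libraries, so it is a description and carries no p.

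The other alpha2delta genes did not follow it. For *Cacna2d3* r was -0.133 over all libraries and -0.686 for deviations from the group means, and for *Cacna2d2* -0.0694 and -0.544. Without the same 2 libraries the values within groups were -0.841 and -0.133. *Cacna1a* had r = 0.524 over 18 libraries and 0.0336 within groups. For the 6 members besides these and *Cacna2d1*, r with the injury sum lay between -0.437 (*Cacna1e*) and 0.344 (*Cacnb3*). Without the same 2 libraries it was 0.752 for *Cacnb3* and 0.590 for *Cacna1a*, and within groups *Cacnb3* was at -0.290 with these libraries and 0.389 without them. The summed neuron genes gave other values: r was 0.815 for *Cacnb3*, 0.628 for *Cacna2d3* and 0.443 for *Cacna2d1*, and within groups 0.613, 0.509 and -0.322.

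**Figure D5:**
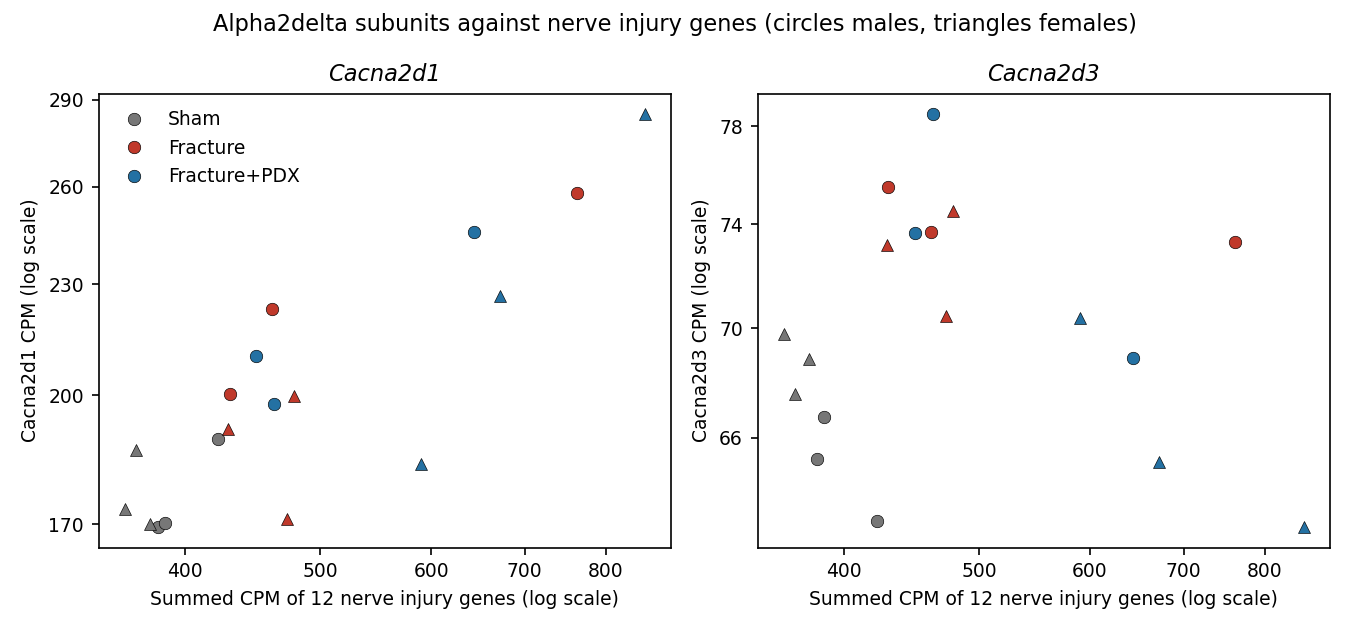
CPM of *Cacna2d1* and *Cacna2d3* against the summed CPM of 12 nerve injury genes in 18 libraries, log axes, with circles for males, triangles for females and colours for groups. *Cacna2d1* was highest in the 4 libraries with injury sums from 644 to 853 CPM, and *Cacna2d3* had its lowest value, 62.9 CPM, in the library at 853 CPM.

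Among 15798 other genes with a mean of at least 1 CPM, those whose log2 CPM was most like that of *Cacna2d1* over 18 libraries were *Abca1* (r = 0.906), a cholesterol exporter, *Sox11* (r = 0.888), a transcription factor of the injury list, *Rhoq* (r = 0.862), *Plxna4* (r = 0.861) and *Ampd3* (r = 0.858). For *Cacna2d3* they were *L3mbtl4* (r = 0.849), *Lzts1* (r = 0.815) and *Sms* (r = 0.812). For *Cacna1a* they were *Bsn* (r = 0.884), which codes for a scaffold of the presynaptic active zone, *Dst* (r = 0.874) and *Akap6* (r = 0.870).

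Sex was compared over 9 males and 9 females with group as a covariate. No member passed the test, where 0.297% of the 20527 genes tested did. *Cacnb4*, a beta subunit of neurons, came closest: females had 83.9, 95 and 110 CPM as lowest, median and highest value, and males 105, 108 and 122 CPM. Of the females, 8 of 9 were below every male, and the sexes did not overlap in 2 of 3 groups, Sham and Fracture, a pattern of lower females in at least 2 groups that 1.72% of all genes showed. With 3 mice of a sex in a group, *Cacna1c*, *Cacna1e*, *Cacna2d1* and *Cacna2d2* each had all females below all males in 1 of 3 groups. The reverse held in Sham for *Cacna1c* (females from 63.9 CPM, males up to 61.5 CPM) and *Cacna2d3* (from 67.6 and up to 66.8 CPM). The share of all genes with such a separation in 1 group was not computed, so no sex pattern is read from it. The log2 fold change of *Cacnb4* in females against males was -0.21 (SE 0.0453, edgeR adjusted p = 0.0588), and DESeq2 gave an adjusted p of 0.00257. It was called in edgeR without Fracture M2 (adjusted p = 0.0410) and without Fracture+PDX F1 (adjusted p = 0.00253), the 1 female above 105 CPM. At an unadjusted p under 0.05, 1 of 10 members was lower in females, where 5.36% of all genes were. Nociceptor genes lay on the same side, with 8 of 10 below 0, a median log2 fold change of -0.10, 5 of 10 lower at an unadjusted p under 0.05 and none called. Red blood cell genes did too, with 0 of 7 above 0 (median -0.17). Skeletal muscle genes (11 of 11 above 0, median 1.26) and macrophage genes (8 of 8, median 0.14) lay on the other side. None of these was called, and the part of these lists in the difference of *Cacnb4* was not tested. The other 9 members differed by between -0.14 (*Cacna1e*) and 0.052 (*Cacna1h*) on the log2 scale.

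Whether the fracture difference depended on sex was tested as an interaction. It was called for 0% of genes and no member. The value nearest to the threshold was that of *Cacna1c*, the main L-type pore of neurons and smooth muscle, at -0.39 (females minus males, SE 0.118, edgeR adjusted p = 0.545). Male values were 56.9, 60.8 and 61.5 CPM in Sham, 64.9, 72.4 and 72.9 CPM in Fracture and 73.5, 74.1 and 75.9 CPM in Fracture+PDX. Female values were 63.9, 69.2 and 74.7 CPM, 54.5, 63.6 and 69.2 CPM and 63.1, 63.4 and 69.1 CPM. The 3 male groups did not overlap with each other, as in 1 of 10 members and 1.05% of all genes, while the female groups did. *Cacna1c* is named as the lowest p of the members, and its difference between sexes did not pass the correction. *Cacna2d1* was higher in Fracture than in Sham by 0.36 in males and 0.085 in females on the log2 scale, an interaction of -0.28 (edgeR adjusted p = 0.674). In Fracture+PDX against Sham it was higher by 0.30 in males and 0.37 in females. The interaction of sex with PDX was called for 0.00486% of genes and for no member.

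The members differed in how much mice of the same group varied. *Cacna1b* had a pooled within-group SD of 0.290 on the log2 scale, larger than that of 98.9% of 1810 genes within 1.5 times of its mean CPM. *Cacna2d1* had 0.181, larger than 95.8% of its 1059 neighbours in level, and *Cacnb4* 0.156, larger than 91.4% of 2097. *Cacnb3*, *Cacna1a* and *Cacna2d3* had 0.0619, 0.0741 and 0.0763, near the middle of genes like them (44.3%, 50.6% and 47.8% were smaller). These 3 had the narrowest intervals in Fracture+PDX against Fracture.

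Of 13 further subunit genes of the family, listed for comparison, none was called in Fracture against Sham, where 2.92% of all genes were, and 1 in Fracture+PDX against Sham, where 4.5% were. That gene, *Cacna1i*, a T-type pore, had 7.40, 7.90 and 9.65 CPM in Sham and 7.56, 10.7 and 12.5 CPM in Fracture+PDX, a log2 fold change of 0.40 (SE 0.102, edgeR adjusted p = 0.0437). The skeletal muscle subunits were low and not called, where they passed the filter on low counts: *Cacna1s* had a median of 2.01 CPM in Sham and 3.41 CPM in Fracture and reached 8.98 CPM, *Cacng1* had 0.0824 and 0.506 CPM and reached 2.91 CPM, and *Cacng6* had at most 0.584 CPM in any library.

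Partners of the channels (calmodulins, extracellular ligands of alpha2delta and regulators among them) were also compared, 26 in all. *Usp5*, a deubiquitinase known to stabilize the T-type pore made from *Cacna1h*, rose after fracture with a log2 fold change of 0.12 (SE 0.0236, edgeR adjusted p = 0.0171). The median of the 11 neuron genes in that comparison was also 0.12, and *Cacna1h* itself was at 0.014 (edgeR adjusted p = 0.935). In Fracture+PDX against Sham *Usp5* was higher by 0.13 (edgeR adjusted p = 0.0256), *Stac*, an adaptor of L-type channels, by 0.31 (edgeR adjusted p = 0.00811), and *Cabp1*, a calcium-binding regulator of the pore, by 0.26 (edgeR adjusted p = 0.0341). *Thbs1*, a thrombospondin of the family that binds alpha2delta-1, fell by 0.21 on the log2 scale (edgeR adjusted p = 0.0233). No partner was called in Fracture+PDX against Fracture. The partners and the further subunit genes were not examined under the neuron scaling.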

How the data were processed

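The members and gene lists were chosen with earlier results of these data known. Total RNA of DRG, 1 library per mouse, was poly(A)-selected, made into TruSeq stranded libraries and sequenced on an Illumina NovaSeq system. The submitters' processing notes name cutadapt 1.10, FastQC, HISAT2, StringTie and the mm10 build. The counting program is not given in the sources used here. The authors deposited a raw read count per gene, which was used without change, and FPKM values, which the authors divided by gene length and library total. Table columns named Con were read as Sham. The labels name no batch.

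The counts went into edgeR 4.0.16 (R 4.3.3): filterByExpr by group (minimum count 10, minimum total count 15), TMM scaling and quasi-likelihood tests on the 12 libraries of each comparison with sex as a covariate. Comparisons of sexes used 18 libraries and group as a covariate. Calls are at an adjusted p under 0.05. Log2 CPM in correlations used a prior count of 2. Alternatives were DESeq2 1.42.0, limma 3.58.1 on log2(FPKM + 1) and log2(FPKM + 0.1), other scalings, filters and designs, and leaving out each library. The fits were tested on simulated data.

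All 10 members are named. Called genes of the other subunit and partner lists, apart from the 1 partner mentioned below, are named, with at most 6 per list and comparison. Cell type and injury lists are given by counts with at most 3 genes. Genes of like pattern are the 5 with the highest r for *Cacna2d1*, which was not called, and the 3 with the highest r for each called member. For *Cacna1b*, also not called, the 3 with the highest r are given as well. The muscle subunits are named in any case. The results of 1 channel partner are not reported here. Library pairs of 1 group differed by a chi-square of 23.7 to 74.8 per gene, so none was a duplicate.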

Additional observations from a re-analysis of the deposited data

How the results depend on the processing

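Of the members' group differences and the sex difference of *Cacnb4*, each under every setting, 585 kept their direction and side of the threshold, 27 changed sign, 27 lost a call and 15 gained one. DESeq2 called 1506 genes and 2 members in Fracture against Sham, 10 genes in Fracture+PDX against Fracture, 1627 genes and 3 members in Fracture+PDX against Sham, and 323 genes and 1 member for sex. Without group as a covariate 31 genes were called for sex. In Fracture against Sham 0 members were called without the filter on low counts, with all 18 libraries in one fit and with limma at either FPKM pseudocount. In Fracture+PDX against Sham limma called 0 members, and upper-quartile scaling, no sex covariate and one fit of all 18 libraries called 2 each.

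The labels' replicate numbers were not taken to pair the mice, since not every correlation of same-numbered libraries was over 0.1: they were between -0.0386 and 0.0559 in Fracture against Sham, between -0.0855 and 0.135 (1 of 6 over 0.1) in Fracture+PDX against Fracture and between -0.068 and 0.0789 in Fracture+PDX against Sham. With the replicate block 118 genes and 0 members were called in Fracture against Sham (*Cacna2d3* at adjusted p = 0.125) and 486 genes and 0 members in Fracture+PDX against Sham (*Cacna1a* at 0.0777).

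Scaled to the neuron genes, the values that changed sign were, in Fracture against Sham, -0.021 (*Cacna1a*), -0.095 (*Cacna1c*), -0.12 (*Cacna1h*), -0.0053 (*Cacna2d2*), -0.030 (*Cacnb3*) and -0.015 (*Cacnb4*), and in Fracture+PDX against Sham -0.069 (*Cacna1b*), -0.025 (*Cacna1c*), -0.093 (*Cacna1h*), -0.063 (*Cacna2d2*), -0.080 (*Cacna2d3*), -0.014 (*Cacnb3*) and -0.12 (*Cacnb4*).

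Leaving out 1 library gave between 213 (without Fracture F2) and 710 calls (without Sham M1) and between 0 and 1 called members in Fracture against Sham, 0 to 1 calls (without Fracture+PDX F3) and 0 members in Fracture+PDX against Fracture, 498 (without Fracture+PDX F1) to 1008 calls (without Sham M1) and 0 to 3 members in Fracture+PDX against Sham, and 25 to 79 calls and 0 to 1 members for sex. Signs changed for *Cacna1b* (-0.16 to 0.025 in Fracture against Sham, -0.036 to 0.16 in Fracture+PDX against Sham), *Cacna1h* (-0.011 to 0.054, and -0.0021 to 0.073 in Fracture+PDX against Fracture) and *Cacnb4* (-0.038 to 0.054 in Fracture+PDX against Sham). The cause of these changes was not tested.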

Other observations

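*Cacna1b* lies at chr2:24603887-24763152 on the minus strand (mm10), and the nearest gene before its start with a mean of at least 50 reads is *Ehmt1*, a histone methyltransferase gene at chr2:24789928-24919614 on the same strand, 26775 bases away. Chosen after the values were seen, *Ehmt1* was the gene whose log2 CPM was most like that of *Cacna1b* by Pearson's r over 18 libraries, of 15798 compared (Pearson's r = 0.812, Spearman's rho = 0.713). Pearson's r was 0.749 without the 2 libraries farthest from the median *Ehmt1* value, and 0.894 for deviations from the group means. Next were *Acly* (r = 0.783, rho = 0.818, a higher rho than that of *Ehmt1*) and *St6gal2* (r = 0.725, rho = 0.616), neither of them within 500000 bases of *Cacna1b*. *Ehmt1* was between 24.5 and 29.1 CPM in 10 libraries, between 40.8 and 43.8 CPM in 4, and 51.8, 56.7, 62.5 and 64.4 CPM in Fracture+PDX M2, Fracture+PDX F1, Sham F3 and Sham M2. The same 4 libraries held the highest *Cacna1b* values, 165, 161, 150 and 154 CPM. The 20 other entries with a mean of at least 50 reads within 500000 bases had r between -0.467 and 0.267 with *Cacna1b*. None of these 4 was a Fracture library, where *Ehmt1* reached 43.8 CPM and *Cacna1b* 127 CPM. A cause was not tested.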
